A study of Aptenodytes patagonicus with 3 samples.

Results

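The factors described here are the transcription factors that set up and maintain the skeletal muscle lineage: the myogenic regulatory factors MYOD1, MYF5, MYF6 and MYOG, the paired-box factors PAX3 and PAX7, and the myocyte enhancer factors MEF2A, MEF2C and MEF2D. Their probe sets were chosen by gene symbol alone: every probe set to which the platform annotation gives a single symbol from a list of 10 factors was taken. This gave 18 probe sets for 9 genes, out of 36813 probe sets and 12913 named genes on the array. MEF2B, the remaining factor of the list, was not analysed here, because no probe set carries its symbol in the annotation used.

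The samples were pectoralis biopsies of 3 juvenile king penguins (Aptenodytes patagonicus) of the artificially acclimated (AA) group, 1 Affymetrix Chicken Genome array per bird. All were captured before they had ever entered cold water, moulted in captivity, and were then placed 10 times for 5 hours, every 2 days, in a tank of water at 8 °C. They were fed mackerel daily and biopsied under anaesthesia at the end. Bird 2 was the male of the group, and the females were birds 1 and 3. The never-immersed and sea-acclimatized groups were not analysed here, so the values describe how AA birds differ from each other, not what immersion did. Chicken probes bind penguin RNA with an affinity that depends on how well the sequences match, so signals are compared between birds within a probe set and not between genes.

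In embryonic muscle PAX3 and PAX7 mark the precursor cells, MYF5 and MYOD1 commit these cells to the muscle fate, and MYOG drives their differentiation and fusion into fibres. MYF6, also called MRF4, is best known from mammals as the member of the family that stays on in mature fibres. The 4 myogenic factors are basic helix-loop-helix proteins that bind DNA as dimers with E proteins, while the MEF2 factors are MADS-box proteins that bind beside them at muscle genes and respond to calcium and kinase signalling. In adult muscle PAX7 labels satellite cells, the resident stem cells, and MYOD1 and MYOG are known to appear when these cells are activated and differentiate. Both genes are also active at low levels in fibres and respond to nerve activity. In a biopsy, more cells of a type and more RNA per cell cannot be told apart.

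MYOG and MYOD1 were the only factors whose signal differed between AA birds by over 1 log2 unit, and they did not single out the same bird. Bird 1 had a log2 signal of 11.16 for MYOG, against 9.62 for bird 2 and 9.995 for bird 3 (10.26 ± 0.80, SD, n = 3). Bird 1 stood alone above the others, by 1.54 over bird 2 and by 1.16 over bird 3, and the largest of these gaps is a 2.91-fold difference in signal. MYOD1 read 10.80, 10.24 and 11.70 in the same order of birds (10.91 ± 0.74, SD, n = 3). Here bird 3 was the highest and bird 1 lay between the others, with a 2.75-fold gap from bird 3 to bird 2. MYOD1 and MYOG thus had their highest signal in different females, and both had their lowest in the male.

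Measured against the whole array, these spreads were large. The SD of MYOG exceeded that of 98.9% of all probe sets and that of MYOD1 exceeded 98.5%. Of the 18 probe sets, 2 had a range over 1 log2 unit, beside 4.56% of all probe sets and 8.20% of the probe sets in the upper quartile of mean signal, to which both belong. The spread of each rested on particular birds. Without bird 1 the SD of MYOG was 0.27, above 70.1% of probe sets taken over the same birds, and without bird 3 that of MYOD1 was 0.39, above 86.7%. Each gene was read by a single probe set, so neither pattern could be checked on another one.

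**Figure D1:**
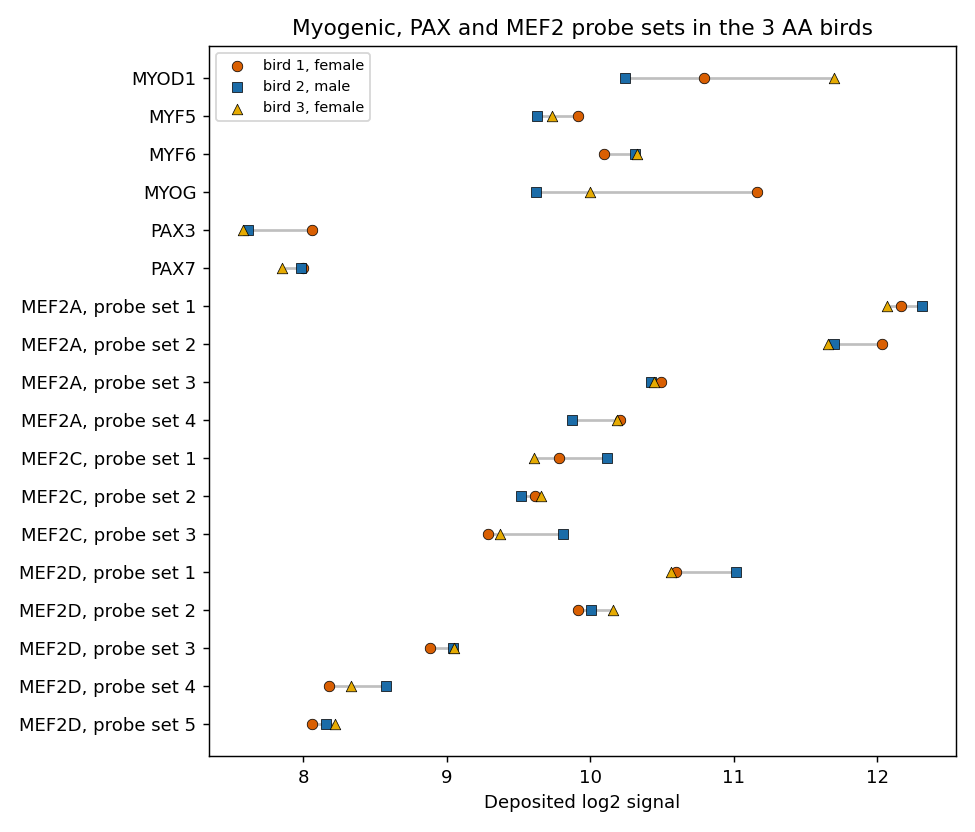
Deposited log2 signal (x axis) of each of the 18 probe sets (rows, in the order of brightness within a gene) in bird 1, bird 2 and bird 3, with a grey line over their range. Points may be compared along a row only, and the long lines of MYOG, with bird 1 at 11.16, and MYOD1, with bird 3 at 11.70, stand out from the short lines of the other probe sets.

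The other myogenic factors varied little. MYF5 gave signals of 9.91, 9.63 and 9.73 in birds 1, 2 and 3 (9.76 ± 0.14, SD, n = 3), and its SD exceeded that of 32.7% of all probe sets. MYF6 read 10.10, 10.31 and 10.33 (10.25 ± 0.13, SD, n = 3), and its SD exceeded that of 27.5%. The whole range of MYF5 was 0.28 and that of MYF6 was 0.23. MYF5 and MYF6 are direct neighbours on chromosome 1 in the RefSeq assembly of the species, bAptPat1.pri.cur, with 0 genes listed between them. Their order of birds was not shared, as MYF5 was highest in bird 1 and MYF6 was lowest there.

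The paired-box factors had dim probe sets. PAX3, a factor of the embryonic dermomyotome and of migrating limb precursors, read 8.06, 7.61 and 7.58 in birds 1, 2 and 3 (7.75 ± 0.27, SD, n = 3). PAX7, the marker of satellite cells, read 8.00, 7.98 and 7.85 (7.95 ± 0.082, SD, n = 3). The lower quartile of each array was 7.87, so PAX3 fell below it in birds 2 and 3 and PAX7 in bird 3. Whether such a signal comes from little RNA or from a poor match of the chicken probes cannot be told apart on these arrays. Bird 1 had the highest value of both genes, by 0.45 over the next bird for PAX3 and by 0.017 for PAX7.

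MEF2 factors carry 12 of the 18 probe sets, and all 12 had a range below 1 log2 unit, with SDs from 0.037 to 0.279. MEF2A, a widely expressed member of the family that is abundant in striated muscle, was read by 4 probe sets, numbered here from the brightest down, as are those of MEF2C and MEF2D. Probe set 1 gave 12.17, 12.31 and 12.06 in birds 1, 2 and 3, and probe set 2 gave 12.03, 11.69 and 11.66. The male was the highest bird on the former, and bird 1 was the highest on the latter and on both remaining probe sets. These remaining probe sets, which can bind several transcripts, gave 10.50, 10.42 and 10.44 on probe set 3 and 10.20, 9.87 and 10.19 on probe set 4. The SD of 0.037 on probe set 3 was the smallest among the factors, and 2.55% of all probe sets had a smaller one.

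MEF2C, which is needed for heart and muscle development in the mouse, was read by 3 probe sets. The values were 9.78, 10.12 and 9.61 in birds 1, 2 and 3 on probe set 1, 9.61, 9.52 and 9.66 on probe set 2, and 9.29, 9.81 and 9.37 on probe set 3. The male lay above both females on probe sets 1 and 3, and below both on probe set 2. Probe sets 1 and 2 carry the same target accession in the annotation, and still placed the male on opposite sides of the females. Of the 3, only probe set 1 is of a type that can bind several transcripts.

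MEF2D, the member of the family known from mice for a splice form that appears late in muscle differentiation, was read by 5 probe sets. On probe set 1 it read 10.60, 11.01 and 10.56 in birds 1, 2 and 3, and on probe set 4 it read 8.18, 8.58 and 8.34. The male was the highest bird on both. On the other 3 probe sets bird 3 was the highest, with values of 9.91, 10.004 and 10.16 on probe set 2, 8.88, 9.04 and 9.05 on probe set 3, and 8.06, 8.16 and 8.22 on probe set 5. By their target accessions probe sets 1 and 3 form a pair, and so do probe sets 2 and 5: the former named different highest birds and the latter the same one. Bird 1 was the lowest on 4 of the 5. Probe sets 1, 2 and 4 are of a type that can bind several transcripts. Which MEF2D transcripts the probe sets bind was not examined.

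Because probe sets of a gene read the same RNA sample, how often they name the same bird limits what a small difference says. Over MEF2A, MEF2C and MEF2D, 8 of 19 pairs of probe sets of a gene (42.1%) agreed on the highest bird. Over all 7076 genes with several probe sets, 36.6% of 23684 pairs did. Pairs of a gene share probe sets and are not independent. For the lowest bird the same count was also 8 of 19, beside 35.7% over all genes. Among MEF2D pairs 6 of 10 agreed on the lowest bird, and among MEF2C pairs 0 of 3 did.

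Counted by probe set over all 3 birds, the factors as a group had a slightly smaller median spread than the array. The median SD over the 18 probe sets was 0.166, beside 0.191 over all probe sets, and 10 of the 18 lay below the median of all. By family, the median SD was 0.440 for the 4 myogenic factors, 0.175 for the 2 paired-box factors and 0.156 for the 12 MEF2 probe sets. Without MYOG and MYOD1 the median over the other 16 was 0.137. With the brightest probe set of each gene alone, the median SD over the 9 genes was 0.249, beside 0.201 over all genes, so which group had the larger median depended on how the probe sets of MEF2A, MEF2C and MEF2D were counted. It depended on bird 3 too: without that bird the median over the 18 probe sets was 0.219, beside 0.159 over all probe sets. The highest bird was bird 1 for 7 of the 18 probe sets, bird 2 for 5 and bird 3 for 6, beside 27.7%, 41.4% and 30.9% of all probe sets. The lowest bird was bird 1, bird 2 and bird 3 for 6 probe sets each, beside 34.7%, 31.2% and 34.2%.

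**Figure D2:**
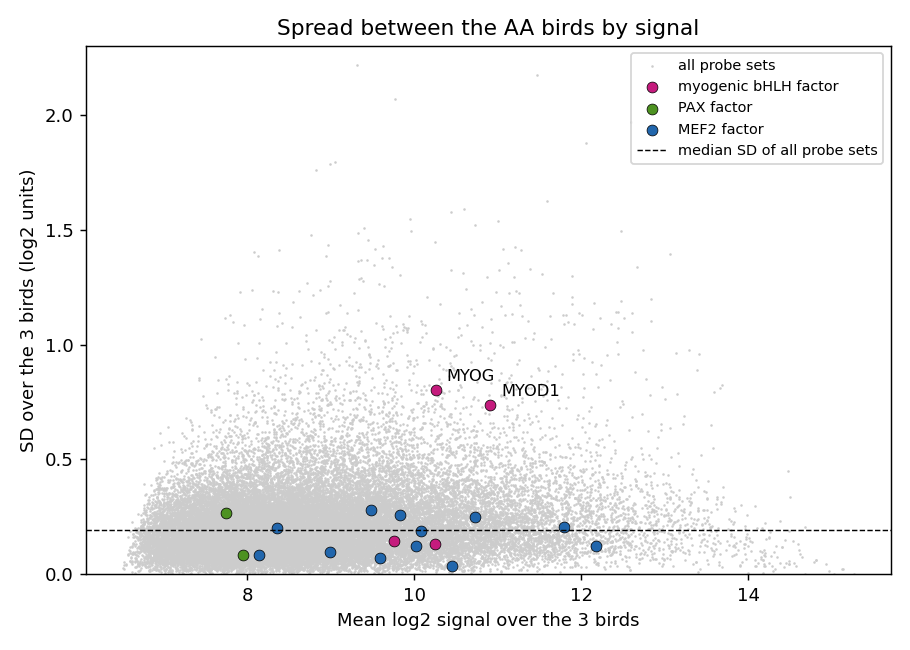
SD over the 3 AA birds (y axis, log2 units) against the mean log2 signal (x axis) of all 36813 probe sets in grey and of the factors in colour by family, with a dashed line at the median SD of 0.191. MYOG at 0.80 and MYOD1 at 0.74 lie above the 95th percentile of all probe sets, 0.510, and the other factors lie at or below 0.279.

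Sex is the only label that differs within the AA group, and the male was compared with the females by limma over all probe sets. With 1 male, a difference of sex and a difference of that bird cannot be told apart, and the fit takes the male to vary like the females. At an adjusted p under 0.05 from limma, 0 of the 18 probe sets passed, and 0% of all 36813 probe sets did. At an unadjusted p under 0.05, 2 of the 18 did, both lower in the male, beside 9.78% of all probe sets, made up of 6.32% lower and 3.46% higher in the male. These were MYOD1, which was -1.005 from the females (SE 0.36, adjusted p = 0.402 from limma), and MYOG, at -0.96 (SE 0.42, adjusted p = 0.510 from limma), with SE for the limma standard error. The male lay below both females for each. The limma standard error rests mostly on the spread of all probe sets. It uses 7.35 degrees of freedom drawn from them, beside 1 from the probe set itself, so it hardly measures the precision of a single probe set. Set against a single female, which leaves no test, the difference was -1.46 against bird 3 and -0.55 against bird 1 for MYOD1, and -0.38 against bird 3 and -1.54 against bird 1 for MYOG, so the size rests on bird 3 for MYOD1 and on bird 1 for MYOG. The gap between the females themselves was 0.91 for MYOD1 and 1.16 for MYOG, about as large as these differences.

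Among the other factors the 3 largest differences were those of MEF2C and MEF2D, each higher in the male. They were 0.48 on probe set 3 (SE 0.23, adjusted p = 0.558 from limma) and 0.43 on probe set 1 of MEF2C (SE 0.23, adjusted p = 0.619 from limma), and 0.43 on probe set 1 of MEF2D (SE 0.23, adjusted p = 0.605 from limma). The largest difference of MEF2A was -0.32, on its probe set 4 (SE 0.23). Over the 18 probe sets the male lay above both females on 5, below both on 6 and between them on 7, beside 41.4% of all probe sets above and 31.1% below. The median difference over the 18 was -0.0076, and over all probe sets it was 0.046.

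**Figure D3:**
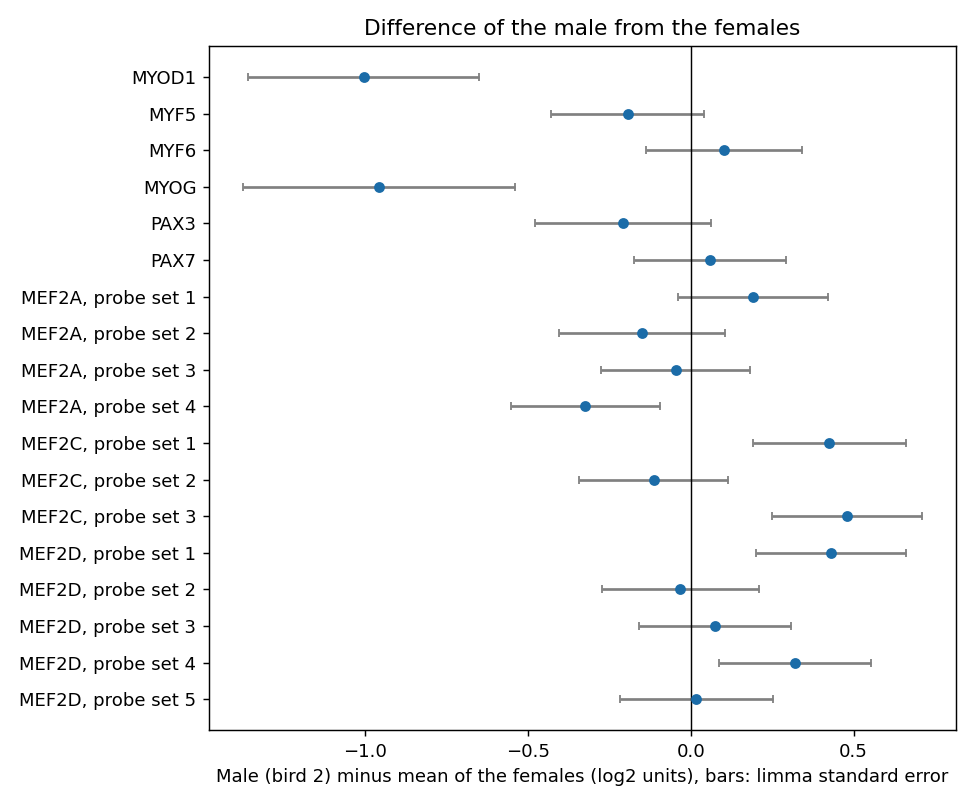
Log2 difference of the male (bird 2) from the mean of the females (x axis, points) for each of the 18 probe sets (rows), with bars of 1 limma standard error. The bars rest mostly on the spread of all probe sets, not on that of each probe set. MYOD1 at -1.005 and MYOG at -0.96 lie farthest from 0, and the probe sets of MEF2A, MEF2C and MEF2D fall on both sides of it.

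MEF2C lies on chromosome Z in that assembly, and is the only one of the factors that does. Male birds carry a pair of Z chromosomes and females a single one, and dosage of Z genes in birds is known to be balanced only in part. On its brightest probe set, which can bind several transcripts, MEF2C was higher in the male by 0.43. This was a larger difference than that of 82.8% of the 464 genes of chromosome Z with a probe set. The median of the Z genes was 0.13, and the male was the higher for 69.4% of them, beside a median of 0.033 and 53.5% for 10079 genes of other named chromosomes. With the 3 probe sets of MEF2C averaged, its difference was 0.26 (SE 0.17, adjusted p = 0.655 from limma over gene means). The mean hides the split described above, where 1 of the 3 probe sets gave -0.11. MEF2D, which lies on chromosome 26, was also higher in the male by 0.43 on its brightest probe set, which can bind several transcripts too. A part of Z dosage in the values of MEF2C was not tested, and with 1 male it cannot be told apart from a difference of that bird.

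**Figure D4:**
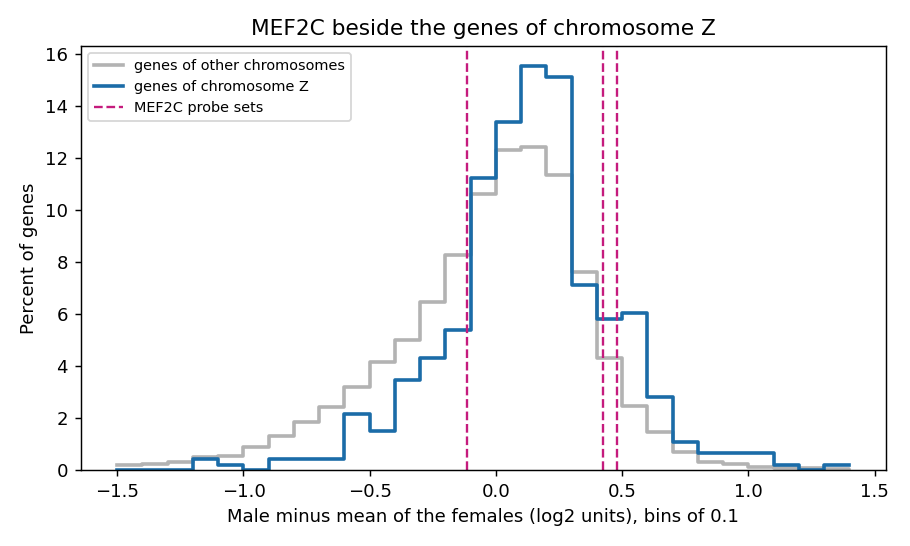
Percent of genes (y axis) by log2 difference of the male from the mean of the females (x axis, bins of 0.1), for 464 genes of chromosome Z in blue and 10079 genes of other chromosomes in grey, each read from its brightest probe set. Dashed lines mark the 3 probe sets of MEF2C at 0.48, 0.43 and -0.11, 2 of them to the right of the Z median of 0.13.

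The other genes of these pathways, each read from its brightest probe set, were sorted into lists of partners, inhibitors, regulators and targets. In these lists 0 genes passed an adjusted p under 0.05 from limma for the male against the females. E proteins are the dimer partners of the myogenic factors. Of these, TCF12 read 12.96, 12.11 and 12.41 in birds 1, 2 and 3, and TCF4 read 9.75, 9.93 and 9.97. The median SD of the 3 E proteins was 0.278, beside 0.201 over all genes.

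Inhibitors of the myogenic factors include the ID proteins, which capture E proteins, and the TWIST, HEY, SNAI and ZEB repressors. For 15 of 19 listed inhibitors, those with a probe set, the median SD was 0.302. TWIST1, a helix-loop-helix repressor of myogenesis, had the largest spread and read 7.99, 7.03 and 8.61 in birds 1, 2 and 3 (SD 0.80, n = 3). Its probe set lay close to the lower quartile of the arrays. HEY1, an effector of Notch, had the smallest and read 8.73, 8.83 and 8.90. At an unadjusted p under 0.05, 4 of the 15 were lower in the male and 0 were higher, beside 8.32% and 4.17% of all genes by their brightest probe sets.

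The MEF2 factors are held inactive by class IIa histone deacetylases and released by calcium-dependent kinases, calcineurin and p38. Of 24 listed genes of this signalling 21 were measured, and of these 6 were lower in the male at an unadjusted p under 0.05 and 0 were higher, beside the same 8.32% and 4.17%. The median SD of the list was 0.248. These 6 work in opposite ways on MEF2: HDAC4 and HDAC7 are repressors, while PPP3R1 and PPP3CA (calcineurin subunits) and MAPK14 (p38) act as activators, and NFATC3 is a target of calcineurin. PPP3R1 varied most, with 12.09, 10.60 and 11.93 from bird 1 to bird 3 (SD 0.82, n = 3), or -1.41 in the male against the females (SE 0.23, adjusted p = 0.186 from limma). CAMK2A, a calcium-dependent kinase, varied least, with 10.45, 10.45 and 10.39. HDAC7 read 10.31, 8.86 and 9.53, and HDAC4 read 10.59, 9.66 and 10.43. HDAC9, also a class IIa deacetylase, read 10.70, 11.01 and 10.80 and was highest in the male. The calcineurin subunit PPP3CB read 10.34, 10.42 and 10.54, with the male between the females. HDAC4, HDAC7, HDAC9 and PPP3CB were chosen after their values were seen.

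Upstream factors of the lineage, cofactors of the sine oculis proteins and homeodomain proteins among them, had a median SD of 0.186 over 14 of 19 listed genes. PITX3, a homeodomain factor of muscle and lens, read 8.51, 7.39 and 7.30 in birds 1, 2 and 3, with bird 1 alone at the top. EYA4, a coactivator of sine oculis proteins, read 9.28, 9.11 and 9.18. Coactivators and cooperating factors had the lowest median SD of these lists, 0.165 over 20 of 23 listed genes. KAT2B, the acetyltransferase PCAF that modifies MYOD1, read 10.88, 10.33 and 11.09, and TEAD4, an effector of the Hippo pathway that acts in muscle differentiation, read 12.57, 12.61 and 12.59. At an unadjusted p under 0.05, 0 upstream factors were lower in the male and 2 higher, and 1 coactivator was lower and 0 higher, beside 8.32% lower and 4.17% higher among all genes.

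Genes of the satellite cell surface and its niche had a median SD of 0.214 over 21 of 24 listed genes. MET, the receptor of hepatocyte growth factor through which quiescent satellite cells are activated, spread more than any other gene of these lists and read 13.77, 11.71 and 12.35 in birds 1, 2 and 3 (SD 1.05, n = 3). Bird 1 stood alone at the top. RBPJ, through which Notch keeps satellite cells quiescent, read 10.44, 10.42 and 10.42. In this list 3 of the 21 genes were lower and 1 higher in the male at an unadjusted p under 0.05, beside 8.32% and 4.17% of all genes.

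Genes of fusion and differentiation, among them targets of MYOG, had a median SD of 0.225 over 21 of 26 listed genes. Of the 21, 6 were highest in bird 1, a share close to the 27.5% of all genes. A further 10 were lowest in bird 1, beside 34.7% of all probe sets. In bird 3, 9 were highest, beside 31.0% of all genes, and 3 were lowest, beside 34.2% of all probe sets. MYOZ2, a Z-disc protein that binds calcineurin, varied most, with 12.01, 11.09 and 12.10 in birds 1, 2 and 3, and LMOD3, which nucleates thin filaments, varied least, with 9.33, 9.29 and 9.38. TMEM8C, the older symbol of the fusion protein myomaker, read 8.72, 8.58 and 8.89, and was chosen after its values were seen. In this list 2 of the 21 genes were lower and 1 higher in the male at an unadjusted p under 0.05, shares close to the 8.32% and 4.17% of all genes.

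**Figure D5:**
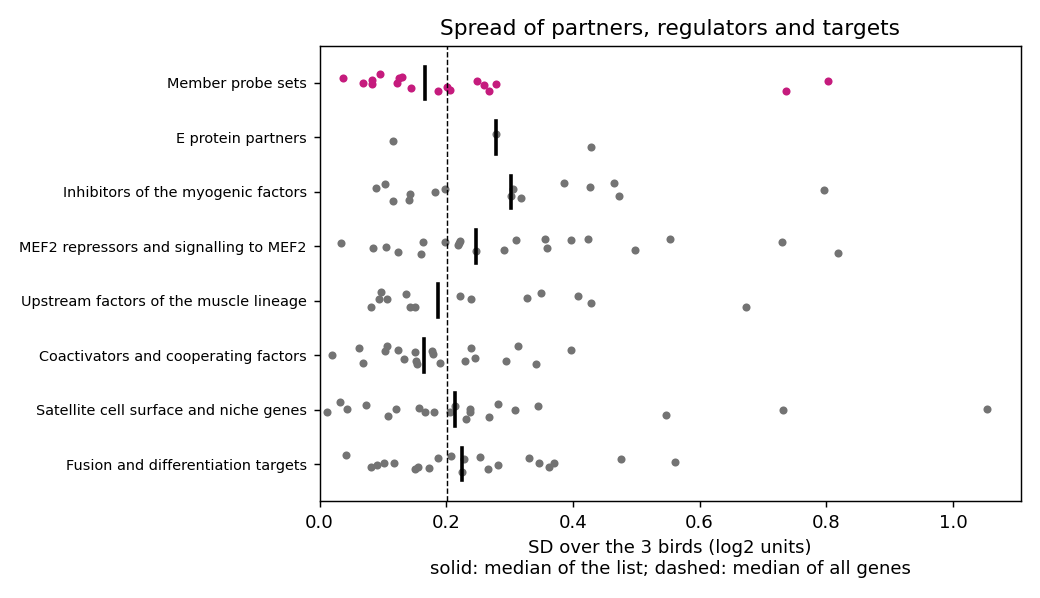
SD over the 3 AA birds (x axis, log2 units) of the 18 probe sets of the factors and of each gene in the lists of partners, inhibitors, regulators and targets (rows, points, with vertical jitter), with the median of each row as a solid line and that of all genes, 0.201, as a dashed line. MYOG and MYOD1 stand apart from the other 16 probe sets, and MET at 1.05 lies farthest to the right. The list genes and the dashed line are read from the brightest probe set of each gene, unlike the row of the factors. Read that way, the median of the 9 factors was 0.249.

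Across the array, 76 other probe sets lay within a distance of 0.2 log2 units of the 3 deviations of MYOG from its own mean. The nearest named genes were SIRT4, a mitochondrial sirtuin, at a distance of 0.0090, ZNF513 at 0.027 and RBM47 at 0.054, over 3 birds. A likeness over 3 birds is a description and was not tested. A gap of over 1 log2 unit between birds 1 and 2 was found in favour of bird 1 for 845 probe sets and in favour of bird 2 for 187.

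Markers of tissue and sex were read on the same arrays. MYL1 and TNNT3, the brightest of 8 fast fibre markers measured, read 14.68 and from 14.77 to 14.88, where the highest value on the arrays was 15.27. PVALB, the dimmest of the 8, read from 8.53 to 9.01. Of 9 slow fibre markers measured, the brightest, TNNC1, read from 14.11 to 14.23, and the dimmest, MYH7, from 6.92 to 7.16. These levels depend on the match of the probes too, so they do not rank the fibre types. The W-linked gene HINTW, which only female birds carry, read 7.77 in bird 2 against 9.91 in bird 1 and 10.30 in bird 3 on 1 of its probe sets. Its other probe set read 8.27, 8.56 and 8.38 in birds 1, 2 and 3. The median of each array was between 8.62 and 8.63.

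Markers of other cell types were also read. Of 10 fibroblast and matrix markers, 7 were highest in bird 1, beside 27.5% of all genes, and their mean signal was 9.74, 9.35 and 9.31 in birds 1, 2 and 3. Of 9 erythrocyte markers 4 were, with mean signals of 11.29, 11.03 and 11.05. The same held for 2 of 7 adipocyte, 4 of 10 endothelial and 0 of 8 leukocyte markers. It held for 1 of 5 smooth muscle and pericyte, 2 of 5 heart muscle and 2 of 9 slow fibre markers. Of 8 fast fibre markers it was counted for 1, MYL1, which read 14.68 in all 3 birds and so was a tie. Beside 27.5% of all genes, the leukocyte, smooth muscle and pericyte, fast fibre and slow fibre shares were lower and the others higher. A part of any of these cells in the values of MYOG and PAX3 was not tested. In bird 3, where MYOD1 was highest, 2 of 10 fibroblast and matrix markers and 2 of 9 erythrocyte markers were highest. So were 3 of 7 adipocyte, 1 of 10 endothelial and 2 of 8 leukocyte markers. For smooth muscle and pericyte markers it was 1 of 5, and for heart muscle markers 0 of 5. Of the fibre markers, 4 of 8 fast and 5 of 9 slow ones were highest in bird 3. Beside 31.0% of all genes, the adipocyte, fast fibre and slow fibre shares were higher and the others lower. A part of any of these cells in the value of MYOD1 was not tested. Mean signals in birds 1, 2 and 3 were 8.96, 9.06 and 9.23 for adipocyte markers, 9.80, 9.82 and 9.78 for endothelial markers, 9.01, 9.32 and 9.29 for leukocyte markers, 9.76, 9.70 and 9.72 for smooth muscle and pericyte markers and 9.44, 9.42 and 9.34 for heart muscle markers. For the fibres themselves they were 12.62, 12.85 and 12.84 for fast and 10.31, 10.18 and 10.32 for slow fibre markers.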

How the data were processed

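Total RNA of pectoralis biopsies was hybridized to Affymetrix Chicken Genome arrays. Following the study's methods, probe signals had been combined into probe sets with MaxRS, a method for hybridization across species, and quantile normalized after log2 transformation, and these log2 signals were deposited by the authors for each bird. The sources used here do not say which arrays were normalized together. For limma, which the submitters' processing notes list, they give no version. The number of arrays limits precision.

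The deposited log2 values were used unchanged. Genes were named from the platform annotation, in which 26041 probe sets have 1 symbol, 170 several and 10602 none. Chromosomes came from the RefSeq table of bAptPat1.pri.cur, matched by symbol for 10543 of 12913 genes. The male was compared with the females in limma 3.58.1 (R 4.3.3, lmFit, eBayes, Benjamini-Hochberg over all probe sets, 1 residual degree of freedom). The step was also run on simulated data in which the male varied like the females, so that assumption was not tested. Nothing says that arrays differ by batch. Spread, order of birds and lists were described without a test. Members and lists were chosen with earlier results of these data known. All probe sets of the factors are described, with the gene of largest and of smallest SD from each list of partners, inhibitors, regulators and targets, and the 3 genes nearest to MYOG. Alternatives were renormalization, filters, probe set summaries, an intensity trend and leaving out birds. No sequences were used here.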

Additional observations from a re-analysis of the deposited data

How the results depend on the processing

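No factor passed an adjusted p under 0.05 from limma under any of the 6 alternative fits. Over all probe sets the count went from 0 to 5 when the types _s_at, _x_at and _a_at, whose probes can match more than 1 transcript, were dropped and to 2 with an intensity trend, and it was 0 with quantile normalization run again, with median centring, with the dimmest 25% left out and with gene means. At an unadjusted p under 0.05 it was 3600 in the fit as reported. Without bird 1 the median SD of the factors was 0.103, beside 0.174 over all probe sets, and without bird 2 it was 0.118, beside 0.140. Without bird 3 it was 0.219, beside 0.159, so with 1 bird left out the factors had the larger median only there. With all birds and the brightest probe set of each gene alone they had it too, at 0.249 beside 0.201 over all genes. With all birds kept, the median range of the factors was 0.309, beside 0.364 over all probe sets. The pairs of probe sets naming the same highest bird were 1 of 3 when those types were left out, beside 36.1% over all genes. With 1 bird left out, only 2 birds remain to choose from. The pairs were then 7 of 19 without bird 1 (36.8%, beside 52.4% over all genes) and 13 of 19 without bird 2 (68.4%, beside 51.4%). Without bird 3 they were 14 of 19 (73.7%, beside 52.9%), so the side of the all-gene share depended on the bird left out. The difference of the male changed sign on 7 probe sets when 1 female was left out, which leaves a difference with no test. Against bird 1 alone and bird 3 alone it ran from -0.017 to 0.13 for PAX7, from -0.014 to 0.22 for MYF6, from -0.45 to 0.032 for PAX3 and from -0.34 to 0.036 for probe set 2 of MEF2A. For MEF2D it was from -0.16 to 0.091 on probe set 2, from -0.011 to 0.16 on probe set 3 and from -0.064 to 0.099 on probe set 5. For MEF2A the sign also differed between its brightest probe set, at 0.19, and the mean of its probe sets, at -0.082. Its 3 other probe sets were each lower in the male. The causes were not tested. The alternative fits that keep all birds changed the sign of 0 of 83 values of single probe sets. No paired analysis was possible because the arrays hold 1 group.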
